A study of Mus musculus with 4 samples.

Results

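The genes described here are 9 genes of the podocyte, the cell that covers the glomerular capillaries, and their products build the slit diaphragm and the foot processes. They are *Nphs1*, *Podxl*, *Synpo*, *Cd2ap*, *Ptpro*, *Magi2*, *Plce1*, *Myo1e* and *Actn4*, chosen by gene symbol as a fixed list. All 9 were found among the 52636 genes counted, and all 9 had enough reads to be tested. RNA-seq was done on tdTomato+ cells sorted by FACS from embryonic mouse kidneys, with 2 control and 2 *Eya1*cKO libraries of 5000 cells each. Control embryos carried *Eya1*CreER and the tdTomato reporter, and *Eya1*cKO embryos carried *Eya1*CreER, floxed *Eya1* on both alleles and the *R26*-tdTomato reporter. All embryos received tamoxifen, on a mixed C57BL/6J and 129/Sv background, and kidneys were taken 48 h after the first dose, at E12.5 to E12.75. The controls thus carried the same CreER allele, which is driven from the *Eya1* locus. Cell suspensions were combined before sorting, so a genotype’s libraries are not known to stem from different embryos, and *P*-values measure only the spread between these libraries.

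Foot processes of neighbouring podocytes interlock, and the gap between them is bridged by the slit diaphragm, a junction built on nephrin. Adaptors and scaffolds couple nephrin to phospholipase signalling and to the actin bundles inside each foot process, while a sialic acid-rich coat on the apical face keeps neighbouring processes apart. Inherited loss of several of these proteins causes nephrotic syndrome. Podocytes arise from the same nephron progenitor cells (NPCs) that *Eya1* helps to maintain.

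The libraries held from 17457452 to 37999342 gene counts, more in the controls than in *Eya1*cKO. Where values of a gene are given for all 4 libraries, the order is control 1, control 2, *Eya1*cKO 1 and *Eya1*cKO 2. *Eya1* itself had 6612 and 6420 reads in the control libraries against 377 and 219 where it was floxed, and fell by 3.60 ± 0.18 (standard error) on the log2 scale with an adjusted *P* of 0.00019 in edgeR. Reads on no gene made up 13.9%, 12.9%, 22.7% and 20.9% of the reads recorded and unaligned reads 6.32%, 6.69%, 12.9% and 12.7%, both higher in *Eya1*cKO, and their part in the results below was not tested. Levels are given as CPM, gene counts scaled to a common library total after TMM normalization, and, where genes are compared with each other, as RPKM, which is CPM per kilobase of exonic length. The limit of 3 counts was at most 0.171 CPM, and every one of the 9 genes lay far above it in every library.

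In edgeR's quasi-likelihood test over 19041 genes, 6 of the 9 genes had an adjusted *P* under 0.05, all of them higher in *Eya1*cKO. Of all genes tested, 9.56% were called in either direction and 5.15% were called higher. The 6 genes were *Ptpro*, *Nphs1*, *Podxl*, *Synpo*, *Magi2* and *Actn4*. *Plce1*, *Cd2ap* and *Myo1e* did not pass. The number of calls turned on which libraries set the spread. With a control library left out, the spread comes from the 2 *Eya1*cKO libraries alone, and fewer of the 9 and of all genes passed. With an *Eya1*cKO library left out it comes from the 2 controls alone, and more passed. The median log2 fold change of the 9 genes stayed between 1.89 and 2.03 in these fits. For 8 of the 9 genes both *Eya1*cKO libraries lay above both control libraries, which held for 25.3% of all genes tested, and only *Myo1e* overlapped among these 9. Their log2 fold changes had a median of 2.04, against 0.02 over all genes tested. *Nphs1*, *Podxl*, *Synpo*, *Ptpro* and *Magi2* are among the genes that the study itself names as upregulated in these libraries, so their direction is not independent evidence, whereas *Cd2ap*, *Plce1*, *Myo1e* and *Actn4* are not named there. In sorted bulk RNA, more cells of a type and more RNA per cell cannot be told apart.

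**Figure D1:**
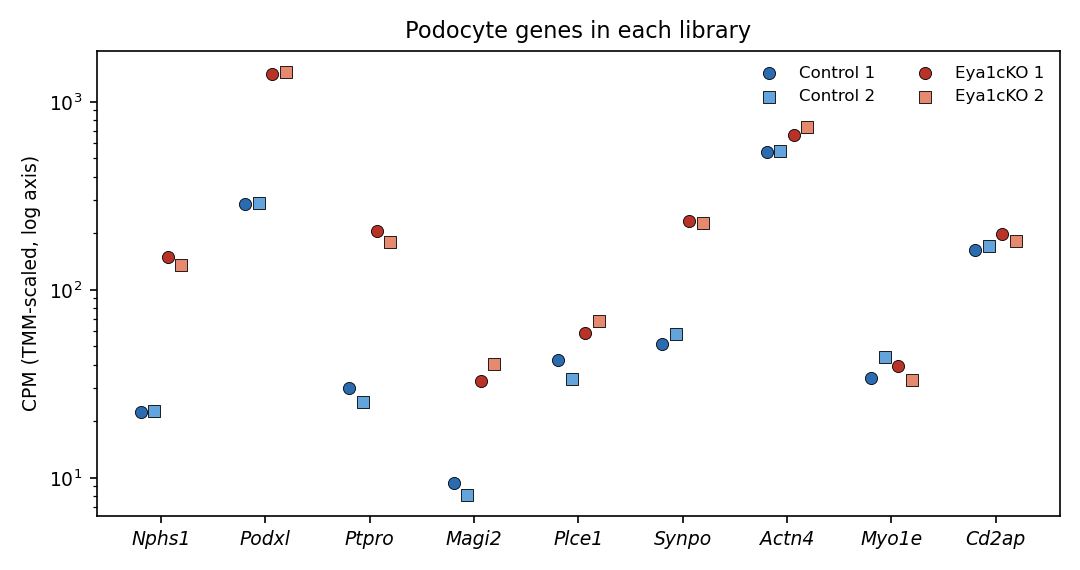
CPM of the 9 podocyte genes (TMM-scaled, log axis) in the control (blue) and *Eya1*cKO (red) libraries, with a point for each library. Both red points lie above both blue points for every gene except *Myo1e*, where the points overlap.

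*Nphs1*, on chromosome 7 from 30458315 to 30487223 of GRCm38 (plus strand), encodes nephrin, the immunoglobulin-family adhesion protein that spans the slit. It had 780, 852, 3372 and 2380 reads, or 22.3, 22.8, 149 and 136 CPM. The libraries of each genotype lay close together and the genotypes were far apart, so that the mean went from 22.5 ± 0.296 to 142 ± 9.58 CPM (SD, n = 2 libraries each). The log2 fold change was 2.66 (95% interval 2.32 to 3.0, adjusted *P* = 0.00026 in edgeR), a 6.34-fold rise. It lay between 2.58 and 2.71 with each library left out in turn, but the adjusted *P* was 0.055 without control 1 and 0.060 without control 2. A lone control is then assumed to vary like the other libraries. Exons of the antisense gene *Nphs1os* cover 9.02% of the exonic length of *Nphs1*, and the strand setting of the counting is not stated.

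*Magi2*, on chromosome 5 from 19227036 to 20704792 (plus strand), encodes a PDZ scaffold that binds the nephrin complex and is also used at synapses. It had 327, 305, 738 and 703 reads, or 9.36, 8.15, 32.7 and 40.1 CPM. Both *Eya1*cKO libraries were well above both controls. Its log2 fold change was 2.04 (95% interval 1.38 to 2.71, adjusted *P* = 0.0078 in edgeR), the widest interval of the genes that rose, and the adjusted *P* was 0.29 without control 1 and 0.34 without control 2.

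*Cd2ap*, on chromosome 17 from 42792951 to 42876665 (minus strand), encodes the adaptor that links nephrin to actin and is made in many cell types. It had 5663, 6377, 4475 and 3187 reads, or 162, 170, 198 and 182 CPM. The *Eya1*cKO libraries were slightly above the controls, with a log2 fold change of 0.19 (95% interval -0.03 to 0.42, adjusted *P* = 0.23 in edgeR). A rise of more than 1.34-fold and a fall below 0.978-fold both lie outside that interval. Without *Eya1*cKO 2 the adjusted *P* was 0.025, at a log2 fold change of 0.24.

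*Plce1*, on chromosome 19 from 38481109 to 38785030 (plus strand), encodes phospholipase C epsilon, a signalling enzyme needed for podocyte maturation. It had 1475, 1259, 1327 and 1204 reads, or 42.2, 33.6, 58.7 and 68.6 CPM. The genotypes did not overlap, and the log2 fold change was 0.74 (95% interval 0.29 to 1.19, adjusted *P* = 0.057 in edgeR), just short of the threshold. *Plce1* is the member whose call turned most on the settings, as the adjusted *P* was 0.049 with library totals alone, 0.043 with at least 10 counts in every library, 0.014 with DESeq2's Wald test, 0.00034 without *Eya1*cKO 1 and 0.0057 without *Eya1*cKO 2.

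*Podxl*, on chromosome 6 from 31519488 to 31563981 (minus strand), encodes podocalyxin, the sialomucin of the apical surface, which is also made by endothelial and blood-forming cells. It had 9994, 10857, 31774 and 25301 reads, or 286, 290, 1406 and 1442 CPM. Libraries of a genotype were nearly equal, and *Eya1*cKO was 4.94-fold higher, a log2 fold change of 2.31 (95% interval 2.17 to 2.44, adjusted *P* = 1.6e-05 in edgeR). It passed the threshold in all 13 alternatives run, with a log2 fold change between 2.27 and 2.34.

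*Ptpro*, on chromosome 6 from 137252319 to 137463233 (plus strand), encodes GLEPP1, a receptor tyrosine phosphatase of the apical foot process membrane, which neurons also make. It had 1047, 952, 4634 and 3167 reads, or 30.0, 25.4, 205 and 181 CPM. *Ptpro* rose most of the 9 genes, with a log2 fold change of 2.81 (95% interval 2.47 to 3.15, adjusted *P* = 0.00021 in edgeR), a 7.0-fold difference. It too passed in all 13 alternatives.

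*Synpo*, on chromosome 18 from 60593973 to 60660142 (minus strand), encodes synaptopodin, which bundles actin in foot processes and in dendritic spines. It had 1797, 2187, 5239 and 3985 reads, or 51.5, 58.4, 232 and 227 CPM. The *Eya1*cKO libraries were nearly equal and stood well above the controls, with a log2 fold change of 2.06 (95% interval 1.80 to 2.33, adjusted *P* = 0.00026 in edgeR). Without control 1 the adjusted *P* was 0.055, at a log2 fold change of 1.95.

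*Actn4*, on chromosome 7 from 28893248 to 28962340 (minus strand), encodes alpha-actinin-4, an actin crosslinker of most cell types, in which dominant mutations damage podocytes. It had 18902, 20583, 15134 and 12885 reads, or 541, 550, 670 and 734 CPM. The rise was small but larger than the spread, with a log2 fold change of 0.36 (95% interval 0.20 to 0.53, adjusted *P* = 0.023 in edgeR), that is 1.29-fold. The adjusted *P* was 0.52 without control 1 and 0.49 without control 2. Exons of *Capn12* on the opposite strand cover 5.16% of its exonic length.

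*Myo1e*, on chromosome 9 from 70207350 to 70399766 (plus strand), encodes a class I myosin that ties the membrane to actin at cell contacts. It had 1184, 1639, 890 and 579 reads, or 33.9, 43.8, 39.4 and 33.0 CPM, and the genotypes overlapped. Its log2 fold change was -0.09 (95% interval -0.62 to 0.43, adjusted *P* = 0.82 in edgeR), and it was 0.09 without control 2. Changes of up to 1.35-fold upwards and down to 0.651-fold lay within the interval and so were not excluded.

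Compared per exonic length, the genes also changed places. In the controls the order was *Actn4* at 89.0 ± 0.971 RPKM, *Podxl* at 52.5 ± 0.484, *Cd2ap* at 10.5 ± 0.363, *Myo1e* at 6.81 ± 1.22, *Synpo* at 5.76 ± 0.515, *Ptpro* at 4.12 ± 0.479, *Nphs1* at 3.41 ± 0.0446, *Plce1* at 2.37 ± 0.381 and *Magi2* at 0.771 ± 0.0759 RPKM (SD, n = 2 libraries). *Myo1e* and *Synpo* did not differ beyond their spread there, and *Nphs1* stood at the 48.8th percentile of the levels of all genes tested. In *Eya1*cKO the order was *Podxl* at 260 ± 4.65 RPKM, *Actn4* at 115 ± 7.47, *Ptpro* at 28.7 ± 2.58, *Synpo* at 24.1 ± 0.347, *Nphs1* at 21.5 ± 1.45, *Cd2ap* at 12 ± 0.729, *Myo1e* at 6.35 ± 0.791, *Plce1* at 3.98 ± 0.438 and *Magi2* at 3.20 ± 0.462 RPKM, and *Plce1* and *Magi2* did not differ beyond their spread. *Podxl* thus overtook *Actn4*, and the 3 genes *Ptpro*, *Synpo* and *Nphs1* passed both *Cd2ap* and *Myo1e*. With the longest annotated transcript as the length, *Cd2ap* stayed above *Nphs1* in *Eya1*cKO, at 33.8 against 30.9 RPKM, and *Synpo* was above *Ptpro* there and above *Myo1e* in the controls.

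The summed level of the 9 genes was 173, 177, 469 and 479 RPKM. *Podxl* made up 30.1% and 29.8% of that sum in the controls and 54.7% and 54.9% in *Eya1*cKO. *Actn4* made up 51.0% and 50.7% in the controls and 23.3% and 25.0% in *Eya1*cKO, although its own level was higher there. The balance of *Podxl* and *Nphs1* moved less, with 15.5 and 15.4 times as much *Podxl* as *Nphs1* per length in the controls and 11.4 and 12.8 times as much after deletion. Against its adaptor partner, the level of *Nphs1* was 0.330 and 0.320 of that of *Cd2ap* in the controls and 1.81 and 1.79 times it in *Eya1*cKO. With the longest annotated transcript as the length, *Nphs1* stayed below *Cd2ap* in both genotypes. The means were 4.89 against 29.6 RPKM in the controls and 30.9 against 33.8 RPKM in *Eya1*cKO.

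**Figure D2:**
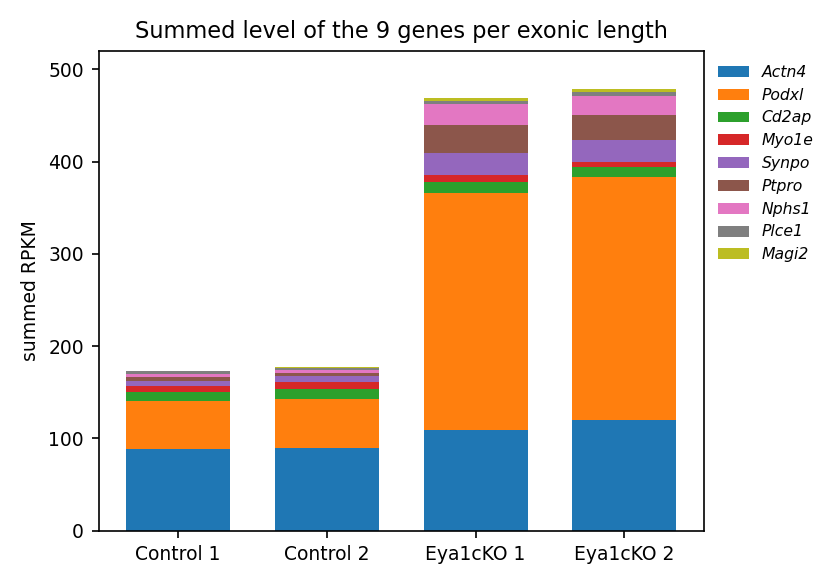
Stacked bars of the RPKM (CPM per kilobase of exonic length) of the 9 podocyte genes in each of the 4 libraries, starting at 0. The sum is 173 and 177 RPKM in the controls and 469 and 479 RPKM in *Eya1*cKO, and the *Podxl* segment grows most.

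Promoter windows from RefSeq (GRCm38.p6), from 250 bases before to 50 after the transcript start, were found for 7 of the 9 genes, and *Magi2* had 2 windows. *Podxl* and *Synpo* were not among them. The window of *Ptpro*, the gene that rose most, is shown beside the first window of *Magi2*, a rarer gene that also rose, and that of *Actn4*, the gene of smallest rise past the threshold, because the windows differ in how many CpG pairs they hold. They are chr6:137252049-137252348 (plus strand), chr5:19226796-19227095 (plus strand) and chr7:28962283-28962582 (minus strand), and capitals mark CG pairs.
Ptpro: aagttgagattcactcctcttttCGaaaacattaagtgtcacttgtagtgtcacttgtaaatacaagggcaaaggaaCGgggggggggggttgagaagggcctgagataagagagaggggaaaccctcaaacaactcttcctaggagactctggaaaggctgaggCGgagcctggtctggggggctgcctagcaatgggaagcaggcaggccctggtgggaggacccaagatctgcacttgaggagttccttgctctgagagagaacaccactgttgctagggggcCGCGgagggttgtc
Magi2: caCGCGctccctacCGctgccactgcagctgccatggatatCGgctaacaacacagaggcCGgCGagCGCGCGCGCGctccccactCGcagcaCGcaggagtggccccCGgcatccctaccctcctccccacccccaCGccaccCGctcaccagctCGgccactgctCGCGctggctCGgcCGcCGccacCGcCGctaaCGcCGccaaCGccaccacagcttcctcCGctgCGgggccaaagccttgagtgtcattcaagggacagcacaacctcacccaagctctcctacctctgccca
Actn4: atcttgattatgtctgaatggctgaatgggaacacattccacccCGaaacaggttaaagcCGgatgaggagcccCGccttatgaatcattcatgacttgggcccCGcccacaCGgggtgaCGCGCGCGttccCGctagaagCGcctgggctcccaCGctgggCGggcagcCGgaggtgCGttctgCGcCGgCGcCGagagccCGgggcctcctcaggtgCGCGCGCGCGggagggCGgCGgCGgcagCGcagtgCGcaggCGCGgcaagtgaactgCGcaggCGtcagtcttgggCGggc

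The *Ptpro* window held 5 CpG pairs and had 54.7% GC, and that of *Nphs1*, which lies wholly within annotated exon sequence, held 6 and had 49.7% GC. The *Plce1* window also lies wholly within exon sequence, and that of *Cd2ap* does for 291 of its 300 bases. *Actn4* held 35 CpG pairs, *Cd2ap* 41, *Myo1e* 16 and *Plce1* 8, and the windows of *Magi2* held 29 and 4, against a median of 7 over 32851 windows. *Ptpro* and *Nphs1*, which rose most, had counts under that median, while the first window of *Magi2*, which also rose, was far above it, so no order by CpG can be read from so few genes. The GC box GGGCGG, searched on both strands, occurred 4 times in *Actn4*, once in *Cd2ap*, once in the other window of *Magi2* and in no other of these windows, and 35.7% of all windows held it. The TATAAA box was in none of them (13.6% of all windows), and neither was the core of the RE1 element, AGCACC followed after 2 bases by GGACAG (0.0517% of all windows). These matches are descriptions of 300 bases each and say nothing of sites elsewhere.

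Most of the 9 genes have close relatives. Among 22 relatives listed, 21 could be tested, 5 were higher, none was lower, and the median log2 fold change was 0.41, in the test that called 5.15% of all genes higher and 4.41% lower. *Synpo2*, a relative of synaptopodin found in muscle, rose from 10.6 ± 0.0325 to 36.7 ± 1.65 CPM, by 1.79 on the log2 scale (adjusted *P* = 0.0083 in edgeR). *Plcb1*, a G protein-coupled phospholipase C, rose by 1.58 and *Myo1d*, another class I myosin, by 1.49 on the log2 scale (adjusted *P* = 0.003 and 0.0043 in edgeR). *Myo1c* rose by 0.72 (adjusted *P* = 0.019 in edgeR).

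*Magi1* and *Magi3* had log2 fold changes of -0.06 (95% interval -0.46 to 0.34) and 0.54 (0.22 to 0.86, adjusted *P* = 0.055 in edgeR), against 2.04 for *Magi2*. *Sh3kbp1*, the relative of *Cd2ap*, was at 71.2 ± 3.51 CPM without and 70.8 ± 14.5 CPM with the deletion, and its log2 fold change was -0.03 (95% interval -0.43 to 0.38), which turned to 0.01 with library totals alone and with DESeq2's Wald test. *Actn1*, which like *Actn4* encodes a non-muscle actinin, had 0.12 (95% interval -0.08 to 0.32, adjusted *P* = 0.39 in edgeR). The differences between members and relatives were not tested. With either control library left out, none of the relatives named here as risen passed the threshold, and the same holds for each gene named as risen or fallen in the 3 lists described next.

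**Figure D3:**
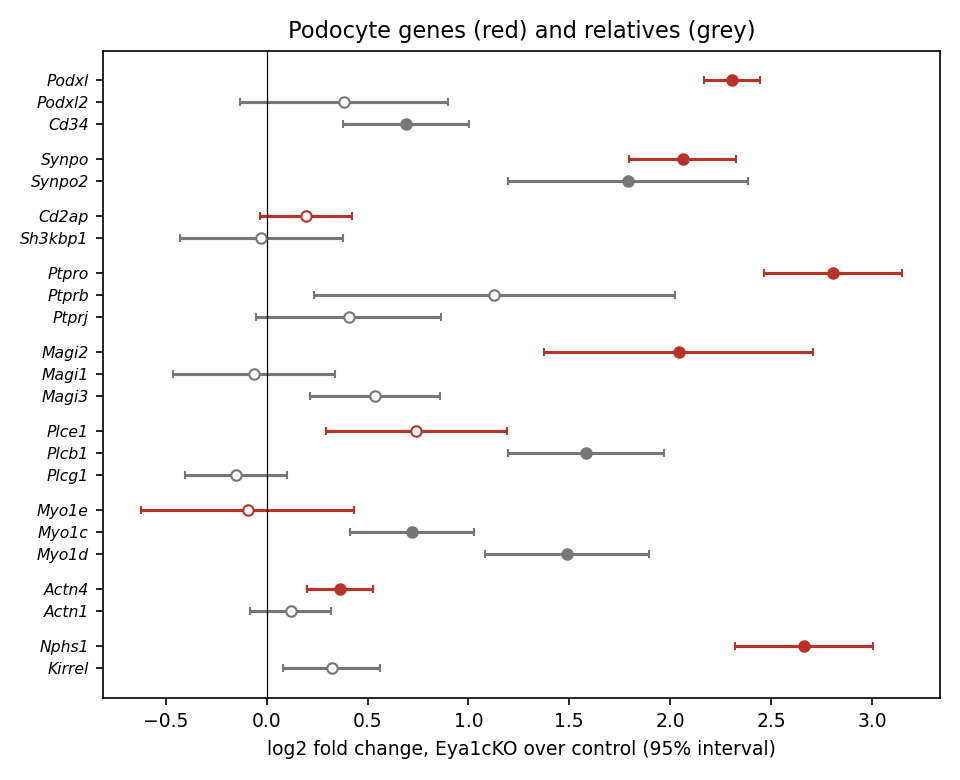
Log2 fold change (*Eya1*cKO over control) with its 95% interval for the 9 podocyte genes (red) and their relatives by family (grey), with filled points for adjusted *P* under 0.05. *Podxl*, *Ptpro*, *Synpo*, *Magi2* and *Nphs1* lie above 2, the interval of *Actn4* (0.20 to 0.53) lies above 0, and those of *Cd2ap*, *Myo1e*, *Sh3kbp1* and *Actn1* include 0.

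Of 16 further slit diaphragm adhesion proteins, adaptors and signalling genes, 1 was higher, 1 was lower and 14 did not pass, close to the 5.15% higher and 4.41% lower among all genes tested, with a median log2 fold change of 0.23. *Crb2*, a polarity protein of the slit diaphragm, rose from 29.6 ± 2.23 to 69.1 ± 18.8 CPM, by 1.20 on the log2 scale (adjusted *P* = 0.023 in edgeR). That call was lost without the low-count filter (adjusted *P* = 0.053 in edgeR) and with control counts thinned to the depth of *Eya1*cKO (0.057), which left no gene of the list higher. Without *Eya1*cKO 1 the list had 5 genes higher and 3 lower, beside 18.7% and 14.8% of all genes in that fit, and without *Eya1*cKO 2 it had 6 higher and 1 lower, beside 19.8% and 15.5%. *Cask*, a membrane scaffold kinase, fell by 0.63 on the log2 scale (adjusted *P* = 0.017 in edgeR). Among the nephrin partners, *Kirrel* was counted at 152 ± 6.76 CPM in controls and 191 ± 14.3 CPM after deletion, and its log2 fold change of 0.32 (95% interval 0.08 to 0.56) did not pass (adjusted *P* = 0.097 in edgeR).

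*Kirrel2* encodes another nephrin relative and lies beside *Nphs1* on the opposite strand, with 624 bases between them. It had 50, 87, 236 and 15 reads. The *Eya1*cKO libraries thus disagreed, and the log2 fold change was 1.72 (95% interval -0.56 to 3.99, adjusted *P* = 0.29 in edgeR) and turned to -1.15 without *Eya1*cKO 1. *Nphs1*, in contrast, was at 149 and 136 CPM in the same libraries, so the neighbours did not share their pattern there.

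Of 20 further genes of foot process actin, apical linkers and matrix adhesion, 19 could be tested, 9 were higher and none was lower, beside 5.15% and 4.41% of all genes tested, with a median log2 fold change of 0.44. *Clic5*, which joins podocalyxin and ezrin at the apical membrane, went up from 17.0 ± 1.97 to 84.8 ± 10.5 CPM, with a log2 fold change of 2.33 (adjusted *P* = 0.0014 in edgeR). *Arhgap24*, a Rac-inactivating protein of podocytes, rose by 1.6 (adjusted *P* = 0.0019 in edgeR), and *Slc9a3r2*, which encodes the NHERF2 linker of podocalyxin, by 1.22 (adjusted *P* = 0.0034 in edgeR) on the log2 scale. *Ezr*, the ezrin gene itself, stood at 228 ± 16.8 and 246 ± 3.71 CPM, with a log2 fold change of 0.11 (95% interval -0.11 to 0.32).

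The study names *Thsd7a*, *Tgfbr3*, *Zbtb7c* and *Clic5* too as upregulated in these libraries, so the lists that hold them are not independent evidence of a direction. Among 13 other podocyte genes, 9 were higher, 1 was lower and 3 did not pass, beside 5.15% higher and 4.41% lower over all genes, with a median log2 fold change of 0.73. *Thsd7a*, which encodes a podocyte membrane protein, and *Tgfbr3*, the betaglycan gene, had the largest log2 fold changes past the threshold, at 2.0 and 1.77 (adjusted *P* = 0.0013 and 0.0011 in edgeR). *Robo2*, whose product binds the nephrin complex through an adaptor and which is also active in nephrogenic mesenchyme, went down from 348 ± 16.1 to 243 ± 7.11 CPM, with a log2 fold change of -0.52 (adjusted *P* = 0.012 in edgeR).

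**Figure D4:**
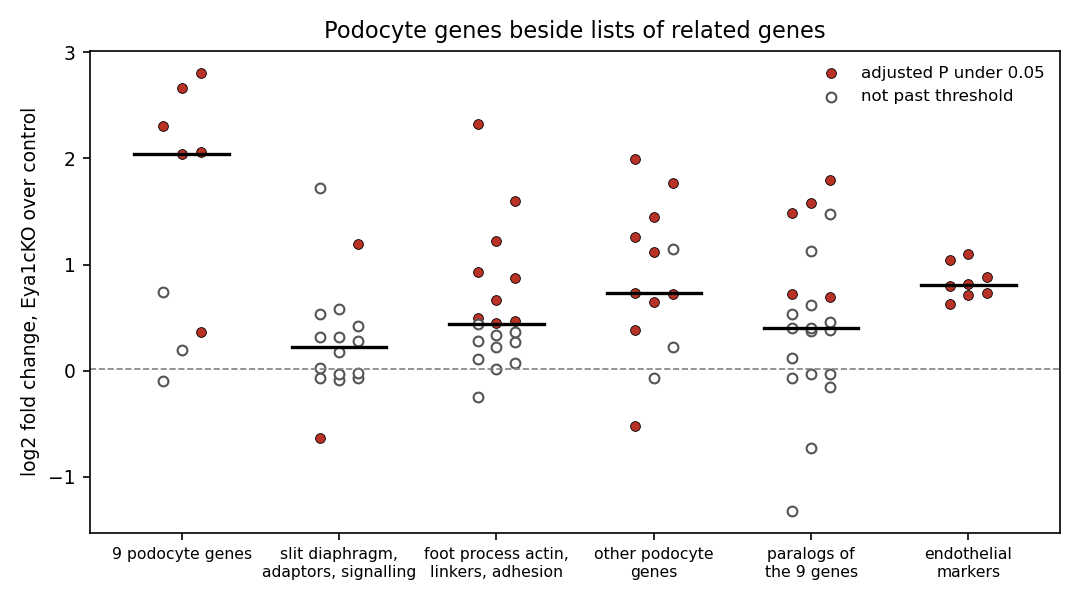
Log2 fold change (*Eya1*cKO over control) of every tested gene in the 9 podocyte genes, 4 lists of related genes and the endothelial markers, with red points for adjusted *P* under 0.05, bars for list medians and a dashed line for the median of all genes tested (0.02). The 9 podocyte genes have a median of 2.04 and split into 5 genes above 2 and 4 below 1.

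By Euclidean distance between log2 CPM profiles over the 4 libraries, each centred on its own mean, the genes nearest to *Nphs1* among 12029 were *Dao*, *Slc7a9*, *C1s1*, *Igfbp7* and *Me1*, at distances from 0.153 to 0.259 log2 units. *Slc7a9* encodes an amino acid transporter of the proximal tubule and *Dao* the D-amino acid oxidase of the same segment. *Igfbp7* encodes a secreted growth factor-binding protein, *C1s1* a complement protease and *Me1* the cytosolic malic enzyme. With 2 libraries a genotype, this likeness reflects little more than a similar fold change.

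Markers of other cell types moved as well. The NPC list holds *Eya1* itself, whose fall the design sets. Its other 6 markers were all lower in *Eya1*cKO, beside 4.41% of all genes, and 2 of them passed with either control library left out, with summed levels of 715, 713, 109 and 73.2 CPM, among them *Six2* (-4.44 on the log2 scale, adjusted *P* = 0.00043 in edgeR) and *Uncx* (-2.61, adjusted *P* = 0.00015 in edgeR). The 8 endothelial markers were all higher, beside 5.15% of all genes, with summed levels of 618, 629, 1068 and 1127 CPM and log2 fold changes from 0.63 to 1.10, as for *Cdh5* (0.82) and *Kdr* (0.80). Of these 8 calls, 4 were left without the low-count filter or with thinned controls, 5 with the legacy method and 0 with either control library left out. *Podxl*, which endothelium also makes, had a log2 fold change of 2.31, above the range of these 8 markers. The part of endothelial cells in its rise was not tested. *Six2*, *Uncx*, *Hsd3b1*, *Chga* and *Col1a2* passed with either control library left out, and the other markers named as higher or lower did not.

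All 7 adrenal cortex markers were called higher, beside 5.15% of all genes, and 1 of them passed with either control library left out, with sums of 35.9, 27.0, 727 and 696 CPM, among them *Hsd3b1* (9.77) and *Cyp11a1* (6.93) on the log2 scale. Of 8 sympathoadrenal and neural markers, 6 were higher, including *Chga* (6.93) and *Dbh* (6.92). The neuronal gene *Elavl4* was lower (-1.80, adjusted *P* = 0.032 in edgeR), a call lost without the low-count filter and with thinned controls, *Stmn2* did not pass (0.62, adjusted *P* = 0.31 in edgeR), and the sums were 32.6, 36.0, 331 and 371 CPM. That list had 7 calls, beside 9.56% of all genes called, and most were lost with either control library left out. With at least 10 counts in every library, 4 of the 5 markers still tested were called. *Synpo*, *Magi2* and *Ptpro* are also expressed in neurons, and the part of such cells in their values was not tested. The renal stroma list had 4 markers higher and 1 lower, beside 5.15% and 4.41% of all genes, with log2 fold changes from -1.21 to 1.70. Its sums were 1345, 1327, 2888 and 3004 CPM, of which *Col1a2* alone gave 606, 602, 1896 and 2022 CPM. *Col1a2* and *Foxd1*, its most abundant genes, had log2 fold changes of 1.70 and 0.51. Of its 5 calls, 2 were left without the low-count filter, with the legacy method or with thinned controls. The part of these cells in the values of the 9 genes was not tested.

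Of 7 ureteric bud markers tested, 2 were lower, beside 5.15% of all genes higher and 4.41% lower, among them *Calb1* (-2.19), and *Upk3a* had no reads. The sums of that list were 262, 259, 181 and 173 CPM. Of the 7 early tubule markers, 3 were higher and 3 lower, *Jag1* (-0.60) and *Wnt4* (-0.83) among the latter, with sums of 782 and 788 CPM against 597 and 684 CPM. No marker of these 2 lists passed with either control library left out. The macrophage and blood markers had no call among the 4 tested, including *Csf1r* (0.19, adjusted *P* = 0.55 in edgeR) and *Cd68* (-0.55, adjusted *P* = 0.33 in edgeR), with sums of 82.5 and 86.8 CPM against 69.0 and 91.9 CPM and *Hba-a1* at 0 in every library.

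**Figure D5:**
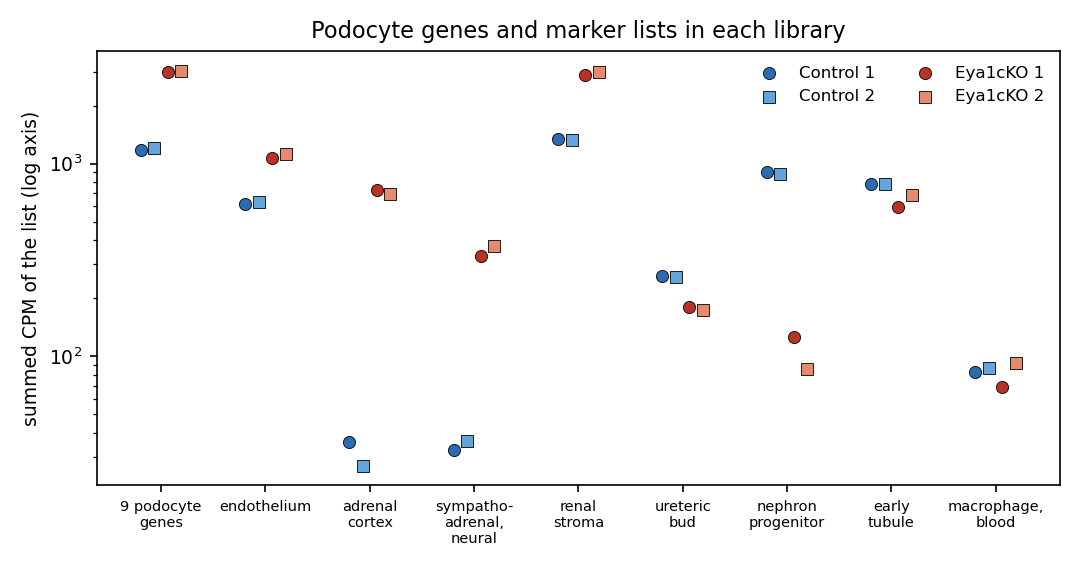
Summed CPM (log axis) of the 9 podocyte genes and of 8 marker lists in each library, with a point for each library. The sums of the podocyte genes and of the endothelial, adrenal cortex, sympathoadrenal and stroma lists are higher in both *Eya1*cKO libraries. Those of the NPC list, which here includes *Eya1*, and of the ureteric bud and early tubule lists are lower in both.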

How the data were processed

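RNA-seq of FACS-sorted tdTomato+ kidney cells was analysed in 2 control and 2 *Eya1*cKO libraries, grouped by sample title. According to the study's methods and the processing notes, reads were aligned to mm10 with HISAT2 and counted on Ensembl v90 genes with HTSeq, and DESeq2 was used for testing. The deposited values are these raw read counts per gene, which the authors did not normalize. Tool versions and the strand setting are not given in the sources used here. Reads on no gene, ambiguous, unaligned or not unique were kept out of library totals. The labels give 6 kidneys per genotype from 4 females, and the methods give other numbers.

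The counts were tested in R 4.3.3 with edgeR 4.0.16 (filterByExpr with a minimum count of 10, TMM scaling, glmQLFit with legacy = FALSE, glmQLFTest on genotype) with Benjamini-Hochberg adjustment over 19041 genes at 0.05. A standard error is |log2 fold change| divided by the root of F, and 95% intervals use the total degrees of freedom of the fit. DESeq2 1.42.0 was an alternative. Symbols, coordinates and exonic lengths (union of exons) were taken from GENCODE M21 on GRCm38, a later release than the one counted on, which paired 52403 of 52636 identifiers. Per-replicate depth bears on precision, and limits of 3 counts cover counting error only.

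The 9 genes and all lists were chosen with earlier results of these data known. Beside the 9 genes, the text names *Eya1*, of each list of related genes the 3 largest rises and falls past the threshold, fixed relatives of the 9 genes, the 5 profiles nearest to *Nphs1* with a mean of at least 5 CPM (log2 CPM with a prior count of 2), and the 2 most abundant genes of each marker list. *Upk3a*, *Hba-a1*, *Elavl4* and *Stmn2* were named after their values were seen. Some genes that this rule names are not reported here. The windows printed were also chosen after the values were seen.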

Additional observations from a re-analysis of the deposited data

How the results depend on the processing

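Among the 9 genes, 6 were called in the main test, and from 5 to 7 under the 9 alternatives run on all 4 libraries, always higher in *Eya1*cKO. The count ran from 2 to 8 when single libraries were dropped. It was 2 without control 1 (*Podxl* and *Ptpro*), 3 without control 2 (also *Synpo*), 7 without *Eya1*cKO 1 and 8 without *Eya1*cKO 2. Over all genes the count was 1820, and it was 1055 without the low-count filter, 3102 with DESeq2's Wald test, 1096 with the legacy method, 1172 with control counts thinned to 19848372 reads, and from 23 to 7925 with a library left out (23 without control 1 and also without control 2, 7414 without *Eya1*cKO 1 and 7925 without *Eya1*cKO 2). Over the listed genes the count was 68, and from 6 to 96 with a library left out. Of the listed genes, 122 were tested in the main fit, beside 9.56% of all genes called there. The listed count and the count over all genes both fell without a control library and both rose without an *Eya1*cKO library. A fit that drops a library takes its spread only from the genotype that keeps 2 libraries, and the causes were not tested beyond that. Of 49 named values, 28 lost their call without control 1 and 27 without control 2, while 3 gained one without *Eya1*cKO 1 and 7 without *Eya1*cKO 2. Library totals alone moved the median of all genes by 0.038, and the share of calls higher in *Eya1*cKO went from 53.9% to 59.3%.

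The labels do not say what the replicate number of the titles marks, and deviations of same-numbered libraries correlated at 0.0062. With that number as a block, 621 genes were called over all genes and 5 of the 9, without *Actn4* (adjusted *P* = 0.052 in edgeR). *Crb2*, *Cask*, *Myo1c*, *Foxd1*, *Jag1*, *Dao*, *Slc7a9* and *Elavl4* also lost their call under the block, which left 4 of the 8 endothelial calls. Log2 fold changes that turned sign all belonged to genes not called. With library totals alone the value was 0.010 for *Sh3kbp1*, and with DESeq2 it was 0.0060. With single libraries dropped the values ran from -0.28 to 0.091 for *Myo1e* (positive without control 2), from -0.25 to 0.18 for *Sh3kbp1* (positive without control 2, at 0.0100, and without *Eya1*cKO 1), and from -0.25 to 0.11 for *Magi1* and -1.15 to 2.45 for *Kirrel2* (both turned without *Eya1*cKO 1). The ratio of the highest to the lowest RPKM among the 9 genes in *Eya1*cKO was 81.0, and 47.9 with the longest transcript as length. No group was large enough for a test of single outlying libraries.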
